A study of Homo sapiens with 6 samples.

Results

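Axon guidance genes encode the secreted and membrane-bound cues, and the receptors for those cues, that steer growing nerve fibres and that many other cells use to set adhesion, repulsion and movement. They were taken here as every counted gene symbol of the semaphorin, plexin, neuropilin, SLIT, ROBO, ephrin, EPH receptor, netrin (NTN1, NTN4 and NTN5) and UNC5 families. This gave 66 of the 25330 symbols counted, made up of 34 ligands and 32 receptors, and 50 of them were among the 14199 genes that passed the filter on low counts. EPHA8 was not analysed here. The members were described in MDA-MB-231, an established line of triple-negative breast cancer cells. Of 6 RNA-seq libraries, 3 came from cells labelled as a knockout of RNASEH2A, which encodes the catalytic part of the RNase H2 enzyme, and 3 from control cells labelled CTRV2. Both groups were grown in RPMI-1640 with 10% fetal bovine serum at 37 °C and 5% CO2, were sampled at 3 passages, carry the same batch label and had an RNA integrity number of at least 7.0. The labels do not say whether the knockout cells, labelled RN1, are 1 clone or a pool, nor what construct the control label stands for, so clone, passage and genotype cannot be told apart and p-values measure the spread between passages.

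Semaphorins signal through plexins, and the secreted class 3 semaphorins mostly need a neuropilin as the binding partner of the plexin. SLIT proteins bind ROBO receptors and are best known as repellents, netrins bind DCC, neogenin and the UNC5 receptors, and ephrins on 1 cell bind EPH receptor tyrosine kinases on its neighbour and can signal into both cells. In epithelia and in breast tissue these systems are known for roles in duct formation, cell sorting, vessel growth and invasion.

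Library totals ran from 25419877 to 31596286 counts, and a count of 0 allows 0.0934 to 0.119 CPM (counts scaled to the library total) by counting error alone, taken as 3 counts. Among all values of 1 to 20 counts, 71.0% were even. If the counter took reads 2 at a time, this limit is too low. Log2 CPM correlated at 0.9849 to 0.9938 within groups (Pearson's r across genes, which are not independent replicates). Knockout replicate 1 stood apart: its r with the other knockouts was 0.9849 and 0.9889, against 0.9928 between the other pair. It was the knockout library closest to the controls at 10 of the 19 members that passed the test below, against 6 for replicate 2 and 3 for replicate 3. This was not counted over all genes. Control replicate 1 also stood apart, by less: its r with the other controls was 0.9917 and 0.9914, against 0.9938 between the other pair. Across genes, deviations from the group mean correlated at 0.316 between knockout replicate 1 and control replicate 1. RNASEH2A itself was near the count floor in both groups, with 7, 8 and 16 counts in the libraries labelled knockout and 10, 6 and 15 in controls, and does not check the labels. It shares 30.8% of its exon bases with THSD8 on the same strand, and whether this lowered its count was not tested. The other RNase H2 subunit genes did not pass: RNASEH2B averaged 34.9 CPM in knockouts and 39.1 CPM in controls, and RNASEH2C 85.3 and 77.3 CPM. The 6 markers of the mesenchymal type of breast cancer line were all expressed, with summed levels of 5767 to 5998 CPM in knockouts and 6060 to 6460 CPM in controls, and none passed the test. Luminal markers summed to 1094 to 1156 CPM in knockouts and 1211 to 1254 CPM in controls. Most of this was KRT8, at a mean of 823 CPM in knockouts and 871 CPM in controls. PGR and FOXA1 averaged under 1 CPM, ESR1 was at 0 in every library, and 3 of 6 tested luminal markers were lower. Endothelial markers summed to 2.74 to 5.53 CPM in knockouts and 3.79 to 4.21 CPM in controls, and neural and Schwann cell markers to 4.96 to 7.10 CPM in knockouts and 4.31 to 5.60 CPM in controls. The fibroblast marker PDGFRA was at 0, and none of the 4 tested fibroblast markers passed. Among leukocyte markers CD53 was at 0, while LAPTM5 was higher, with 187, 164 and 174 CPM in knockouts and 63.3, 62.5 and 59.2 CPM in controls. The part of these markers in the results below was not tested.

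Levels of different members were compared as CPM per kilobase (kb) of exon. EPHA2, a receptor prominent in epithelial tumours, was the most abundant member, at 132 ± 4.33 CPM per kb in knockouts and 139 ± 6.72 CPM per kb in controls (SD, n = 3 each, as for all means below). PLXNA1, a receptor for class 3 semaphorins in complex with neuropilins, followed at 60.1 ± 11.6 CPM per kb in knockouts and 74.1 ± 3.03 CPM per kb in controls. PLXNB2, a receptor for class 4 semaphorins, stood at 54.6 ± 3.93 CPM per kb in knockouts and 44.8 ± 2.95 CPM per kb in controls. NRP1, the main neuropilin of these cells, was at 40.8 ± 0.914 CPM per kb in knockouts and 45.2 ± 2.84 CPM per kb in controls. The highest EPHB receptor, EPHB4, stood at 21.8 ± 0.941 CPM per kb in knockouts and 24.1 ± 0.870 CPM per kb in controls. The SLIT, ROBO, netrin and UNC5 families were scarcer: their highest member in controls was SLIT2, at 2.55 ± 0.0366 CPM per kb in knockouts and 4.95 ± 1.01 CPM per kb in controls. Among receptors the summed level was 351.9 CPM per kb in knockouts and 371.1 CPM per kb in controls, and among ligands it was 123.5 CPM per kb in knockouts and 134.7 CPM per kb in controls.

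**Figure D1:**
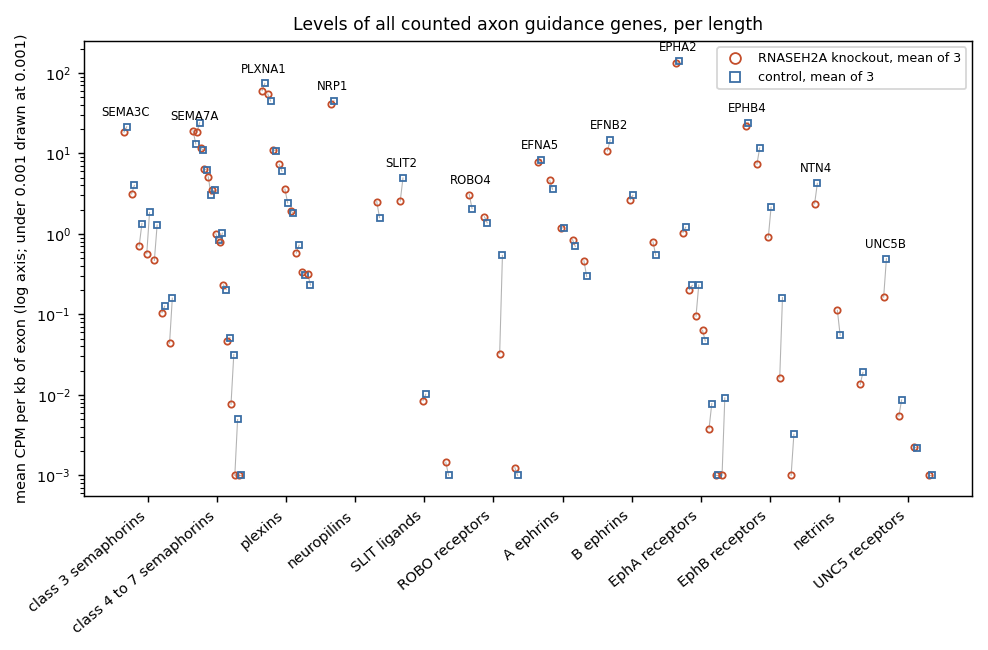
Mean level of each counted axon guidance gene in CPM per kb of exon (log axis; means under 0.001 are drawn at 0.001), by family, with red circles for the mean of the 3 RNASEH2A knockout libraries, blue squares for the mean of the 3 controls and a line joining both means of a gene. EPHA2 is the highest in both groups, and ROBO1 and EPHB6 show the longest lines among members with a control mean over 0.1 CPM per kb.

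Among the 50 tested members, 6 were higher and 13 lower in knockouts than in controls at an edgeR adjusted p under 0.05, which is 38% of them, against 12.1% of all tested genes. The higher members were 12% of those tested, where 5.88% of all genes were higher, and the lower members were 26%, where 6.22% of all genes were lower. The remaining 31 did not pass. The 3 knockout and 3 control values did not overlap at 28 members, or 56%, against 33.5% of all tested genes, and 8 members passed with a change of at least 2-fold, or 16%, against 2.37%. The median log2 fold change of the 50 tested members was -0.14, against 0.00 over all genes tested. The filter keeps a gene that is well counted in only 1 group, and EPHB6 passed through the controls alone. In a bulk library fewer cells that express a gene and less of its RNA per cell cannot be told apart, and this holds for each fall and rise below.

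**Figure D2:**
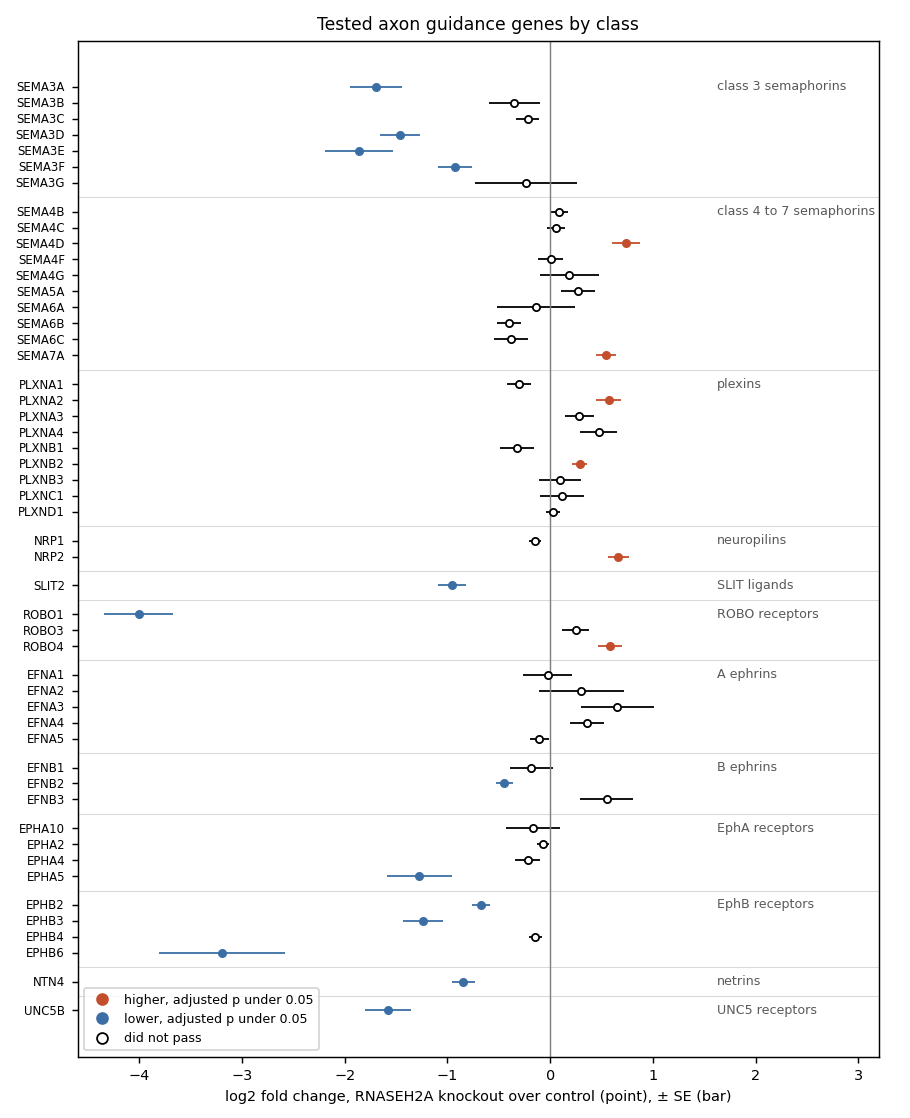
Log2 fold change of the 50 tested axon guidance genes, RNASEH2A knockout over control, with points for the edgeR estimate and bars for ± 1 SE, by family. Filled red points mark the 6 higher members, filled blue points the 13 lower ones, and open points the 31 that did not pass.

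By role, 2 of 27 tested ligands were higher and 7 lower, and 4 of 23 tested receptors were higher and 6 lower. By system, the semaphorin ligands, plexins and neuropilins held 5 of the 6 higher members and 4 of the 13 lower ones, over 28 tested genes. The ephrin system had 0 higher and 5 lower members of 16 tested. The SLIT and ROBO system had 1 higher and 2 lower of 4, and both tested genes of the netrin system were lower. Counts of calls moved with single libraries: without knockout replicate 3 there were 1 higher and 9 lower members, where 1.80% and 1.81% of all genes were called. Without control replicate 3 there were 3 higher and 10 lower members, where 1.92% and 1.87% of all genes were called. Without knockout replicate 1 there were 7 higher and 17 lower members, where 11.3% and 12.5% of all genes were called.

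**Figure D3:**
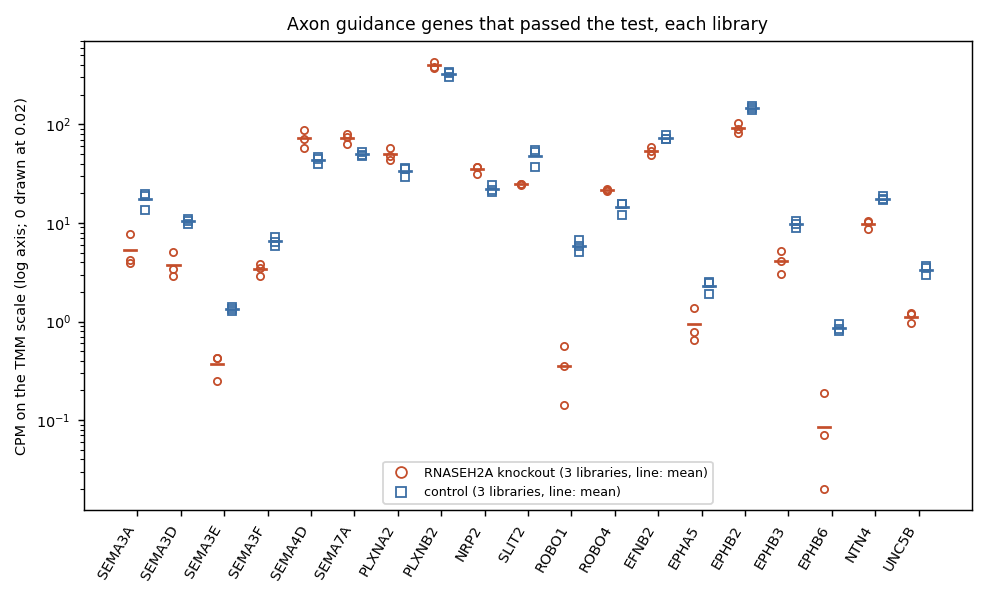
Level of the 19 members that passed the test in each library, in CPM on the TMM scale (log axis; a count of 0 is drawn at 0.02), with red circles for RNASEH2A knockouts, blue squares for controls and a short line at each group's mean. At each of the 19 genes the 3 knockout values lie wholly above or wholly below the 3 control values. The genes were chosen by the test on these same values, so this is not separate evidence.

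Class 3 semaphorins, the secreted members of the family, were lower as far as they changed: of 7 tested, 4 passed with lower levels in knockouts and 0 with higher ones. SEMA3A, the classical repellent of sensory axons that acts through NRP1 and A-type plexins, had 7.82, 3.88 and 4.24 CPM in knockouts and 13.6, 18.6 and 19.8 CPM in controls. The highest knockout library, replicate 1, lay below the lowest control, and the fall was by 3.23-fold (log2 fold change -1.69 ± 0.25 SE, edgeR adjusted p = 0.00356). SEMA3D, another secreted repellent, had 3.43, 2.88 and 5.03 CPM in knockouts, against 9.65, 11.1 and 10.4 CPM in controls. All knockout values, replicate 3 the highest, lay below the lowest control (log2 fold change -1.46 ± 0.20 SE, edgeR adjusted p = 0.00217). SEMA3E, which binds PLXND1 without a neuropilin, was scarce in both groups, with 8, 12 and 12 counts in knockouts and 42, 38 and 32 counts in controls. These counts gave 0.249, 0.431 and 0.428 CPM in knockouts and 1.42, 1.33 and 1.27 CPM in controls, all knockouts below all controls (log2 fold change -1.86 ± 0.33 SE, edgeR adjusted p = 0.00785).

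SEMA3F, a ligand with a preference for NRP2, had 3.52, 3.81 and 2.92 CPM in knockouts and 5.87, 6.45 and 7.14 CPM in controls, again with no overlap (log2 fold change -0.92 ± 0.17 SE, edgeR adjusted p = 0.00798). Its adjusted p was 0.0501 without knockout replicate 3 and 0.0521 without control replicate 3. SEMA3C, the most abundant class 3 member per length, did not pass: it had 137, 99.2 and 109 CPM in knockouts and 139.7, 132 and 131 CPM in controls (log2 fold change -0.22 ± 0.11 SE, edgeR adjusted p = 0.223). Its knockout replicate 1 lay among the controls, and without that library the log2 fold change was -0.37 with an adjusted p of 0.00189. SEMA3B, which lies near SEMA3F on chromosome 3, also had knockout replicate 1 among the controls, with 25.2, 10.6 and 18.5 CPM in knockouts and 25.9, 22.2 and 21.3 CPM in controls (log2 fold change -0.35 ± 0.25 SE, edgeR adjusted p = 0.397), and an adjusted p of 0.022 without knockout replicate 1. SEMA3G was counted at 8 to 30 and did not pass (log2 fold change -0.23 ± 0.50 SE, edgeR adjusted p = 0.804). Its direction turned without control replicate 3 or knockout replicate 3.

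SEMA3E, SEMA3A and SEMA3D are neighbours on the minus strand of chromosome 7, in GENCODE 29 on GRCh38. SEMA3E spans chromosome 7, 83363238 to 83649113, minus strand, SEMA3A spans chromosome 7, 83955777 to 84492724, minus strand, and SEMA3D spans chromosome 7, 84995553 to 85186855, minus strand. With SEMA3C, at chromosome 7, 80742538 to 80922359, minus strand, they lie within 4.44 Mb. Only 2 other tested protein-coding genes fall inside that stretch. CACNA2D1, a calcium channel subunit, fell by 0.40 ± 0.10 SE on the log2 scale (edgeR adjusted p = 0.0292). PCLO, a presynaptic scaffold gene between CACNA2D1 and SEMA3E, had a log2 fold change of 0.72 ± 0.31 SE and did not pass (edgeR adjusted p = 0.165). Within 1.5 Mb outside the stretch, the G protein subunit GNAI1 fell by 0.41 on the log2 scale (edgeR adjusted p = 0.0104), and MAGI2 did not pass. The median log2 fold change of the 40 nearest tested genes, 20 on each side and without members, was -0.01 at SEMA3A, SEMA3D and SEMA3E. A shared cause of the 3 falls was not tested.

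**Figure D4:**
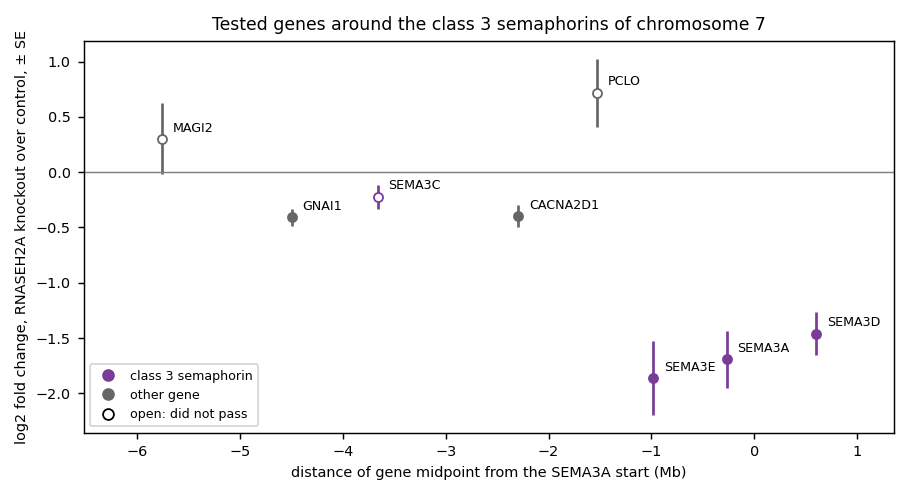
Log2 fold change, RNASEH2A knockout over control, with bars of ± 1 SE, of the tested protein-coding genes around the class 3 semaphorins of chromosome 7. The horizontal axis gives the distance of each gene's midpoint from the start of SEMA3A in Mb. SEMA3E, SEMA3A and SEMA3D lie between -1.86 and -1.46, below SEMA3C and the other genes, and open points did not pass.

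The start regions of 2 of these neighbours are shown because the genes fell together. SEMA3E has 2 such windows and SEMA3D has 1, and SEMA3A is not shown. They are RefSeq windows of 250 bases before to 50 after a gene start on GRCh38.p14, read 5′ to 3′ on the gene's strand. Capitals would mark the GC box GGGCGG on either strand, and none of the 3 windows holds it.
SEMA3E upstream start, chr7:83649090-83649389, minus strand: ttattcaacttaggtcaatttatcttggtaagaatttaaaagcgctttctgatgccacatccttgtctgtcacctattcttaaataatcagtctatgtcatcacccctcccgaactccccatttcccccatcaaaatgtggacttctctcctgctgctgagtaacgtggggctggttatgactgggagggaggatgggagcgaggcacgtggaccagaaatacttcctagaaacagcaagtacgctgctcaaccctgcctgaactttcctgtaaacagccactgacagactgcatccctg
SEMA3E downstream start, chr7:83641382-83641681, minus strand: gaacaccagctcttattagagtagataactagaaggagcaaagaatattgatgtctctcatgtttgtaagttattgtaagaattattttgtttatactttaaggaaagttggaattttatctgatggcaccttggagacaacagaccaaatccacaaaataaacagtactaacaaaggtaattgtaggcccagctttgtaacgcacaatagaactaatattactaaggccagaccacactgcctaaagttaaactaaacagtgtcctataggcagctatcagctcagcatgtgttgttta
SEMA3D, chr7:85187007-85187306, minus strand: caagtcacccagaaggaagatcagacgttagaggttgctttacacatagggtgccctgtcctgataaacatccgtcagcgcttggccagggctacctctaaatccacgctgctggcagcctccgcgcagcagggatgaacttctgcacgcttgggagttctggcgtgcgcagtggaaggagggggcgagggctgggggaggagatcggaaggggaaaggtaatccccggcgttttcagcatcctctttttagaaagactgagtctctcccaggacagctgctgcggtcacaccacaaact
The upstream SEMA3E window was 47.3% G or C with 6 CpG pairs, the downstream one 35.7% with 1 CpG pair and 1 TATAAA match, and the SEMA3D window 57.0% with 14 CpG pairs. The bases just after the start were found in a GENCODE 29 transcript of the gene for the downstream SEMA3E window, and not for the other pair of windows. Over all 34794 RefSeq windows of this length the median was 58.7% with 14 CpG pairs, and 44.9% held the GC box. A missing match says only that these letters are not in the window.

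The class 4 to 7 semaphorins, which are tied to the membrane, contributed no fall: of 10 tested, 2 passed with higher levels in knockouts and 8 did not pass. SEMA7A, a lipid-anchored semaphorin that binds PLXNC1 and integrins, had 62.6, 80.4 and 75.0 CPM in knockouts and 49.1, 52.0 and 47.9 CPM in controls, each knockout above each control (log2 fold change 0.55 ± 0.10 SE, edgeR adjusted p = 0.00767). SEMA4D, the ligand of PLXNB1 also known as CD100, had 87.7, 58.0 and 71.8 CPM in knockouts and 46.3, 39.8 and 44.7 CPM in controls. All knockouts were higher, replicate 1 the most (log2 fold change 0.73 ± 0.14 SE, edgeR adjusted p = 0.00940). Both calls were narrowly lost in some fits without 1 library. Without knockout replicate 3 the edgeR adjusted p was 0.0522 for SEMA7A and 0.0521 for SEMA4D, with log2 fold changes of 0.53 and 0.74. Without control replicate 3 the adjusted p was 0.0522 for SEMA7A, and without control replicate 2 it was 0.0519 for SEMA4D. Fewer genes passed in such fits: 3.61% of all genes were called without knockout replicate 3, against 12.1% with all libraries. SEMA6B, a transmembrane ligand of A-type plexins and the most abundant semaphorin per length over all libraries, had 93.3, 67.8 and 79.6 CPM in knockouts and 119, 99.8 and 98.9 CPM in controls. The groups did not overlap, yet the difference missed the threshold (log2 fold change -0.40 ± 0.12 SE, edgeR adjusted p = 0.0569), with an adjusted p of 0.0156 by DESeq2 and 0.0024 without knockout replicate 1. The other 7 had log2 fold changes from -0.38 for SEMA6C to 0.27 for SEMA5A, which carries thrombospondin repeats. Between these lay SEMA6A (-0.14), SEMA4F (0.01), SEMA4C (0.06), SEMA4B (0.09) and SEMA4G (0.19). SEMA4G shares 27.4% of its exon bases with genes on the opposite strand, MRPL43 among them, and no source used here gives the strand setting of the counting.

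All 9 plexins were counted well enough to be tested, and the 2 that passed were higher in knockouts. PLXNA2, a partner of neuropilins and a receptor for class 6 semaphorins, had 43.0, 48.2 and 57.8 CPM in knockouts and 29.2, 36.2 and 35.0 CPM in controls, with no overlap (log2 fold change 0.57 ± 0.12 SE, edgeR adjusted p = 0.0172). PLXNB2 had 384, 376 and 429 CPM in knockouts and 301, 343 and 329.8 CPM in controls. All knockouts were above all controls (log2 fold change 0.29 ± 0.07 SE, edgeR adjusted p = 0.0346). The PLXNA2 call was lost without knockout replicate 3 (adjusted p = 0.0817), without control replicate 1 (0.0632) and without control replicate 3 (0.0668). The PLXNB2 call was lost without knockout replicate 3 (adjusted p = 0.153), without control replicates 1, 2 and 3 (0.11, 0.0783 and 0.123), and when the median of its chromosomal neighbours was subtracted (0.133).

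PLXNA1, the most abundant plexin per length, had 789.8, 536 and 647 CPM in knockouts and 849, 794 and 789 CPM in controls. Knockout replicate 1 lay level with the controls and the other knockouts below them, and the gene did not pass (log2 fold change -0.30 ± 0.12 SE, edgeR adjusted p = 0.128). Without knockout replicate 1 its log2 fold change was -0.45 with an adjusted p of 0.00102, so PLXNA1, SEMA3B, SEMA3C and SEMA6B each passed once that library was left out. PLXNA4, which binds SEMA3A with neuropilins, had a log2 fold change of 0.47 ± 0.18 SE and an adjusted p of 0.126, or 0.0428 without knockout replicate 1. PLXNA3 stood at 0.28 ± 0.14 SE with an adjusted p of 0.225, or 0.0405 without knockout replicate 2. PLXNB1, the SEMA4D receptor, had -0.33 ± 0.17 SE and did not pass (edgeR adjusted p = 0.236). PLXND1, the SEMA3E receptor, had 0.03 ± 0.07 SE, PLXNC1, the SEMA7A receptor, had 0.12 ± 0.21 SE, and PLXNB3 had 0.10 ± 0.21 SE, all with adjusted p of 0.767 or more. PLXNB3 shares 20.4% of its exon bases with SRPK3 on the same strand, which had 47, 17 and 28 counts in knockouts and 25, 16 and 10 counts in controls.

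The neuropilins, co-receptors that bind both class 3 semaphorins and vascular endothelial growth factors, had 1 of 2 members pass. NRP2 rose by 1.58-fold, with 37.1, 31.4 and 36.7 CPM in knockouts and 24.2, 21.5 and 20.7 CPM in controls (log2 fold change 0.66 ± 0.10 SE, edgeR adjusted p = 0.00363). The lowest knockout value exceeded the highest control value, and the call held without each single library. NRP1 had 478, 458 and 473 CPM in knockouts and 483, 541 and 538 CPM in controls. Its knockouts all lay below its controls, by less than the test could call (log2 fold change -0.15 ± 0.06 SE, edgeR adjusted p = 0.158). NRP2 made up 5.82% ± 0.378 of the neuropilin signal per length in knockouts and 3.42% ± 0.494 in controls. The NRP2 window is shown beside those of SEMA3E and SEMA3D, which are not typical of the lower members. Of the windows of lower members, 11 of 18 hold the GC box.
NRP2, chr2:205682251-205682550, plus strand: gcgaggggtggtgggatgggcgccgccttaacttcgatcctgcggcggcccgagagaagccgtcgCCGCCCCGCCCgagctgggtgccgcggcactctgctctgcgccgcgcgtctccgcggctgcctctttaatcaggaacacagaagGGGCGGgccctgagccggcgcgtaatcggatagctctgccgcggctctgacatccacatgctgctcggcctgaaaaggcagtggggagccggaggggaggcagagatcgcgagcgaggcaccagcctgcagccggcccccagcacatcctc
Capitals mark GGGCGG on either strand. It occurs 3 times, 2 of them as CCGCCC in a run of 11 letters where they share a base, and the window is 70.0% G or C with 33 CpG pairs.

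In the SLIT and ROBO system, the ligand and the receptor that fell were SLIT2 and ROBO1. SLIT2, the only SLIT gene to pass the count filter, had 24.4, 24.9 and 25.1 CPM in knockouts and 37.0, 51.9 and 55.4 CPM in controls. The knockouts lay close together and all below the lowest control, replicate 1 (log2 fold change -0.95 ± 0.14 SE, edgeR adjusted p = 0.00299). ROBO1, a principal receptor of SLIT2 (chromosome 3, 78597240 to 79767815, minus strand), had 18, 4 and 10 counts in knockouts and 173, 146 and 168 counts in controls. On the CPM scale these were 0.561, 0.144 and 0.357 in knockouts and 5.84, 5.12 and 6.67 in controls. This was the largest fall among the tested members, by 16.1-fold (log2 fold change -4.01 ± 0.34 SE, edgeR adjusted p = 0.000304), and the estimate lay between -4.53 and -3.64 under the 17 alternatives run. The nearest tested protein-coding genes did not move with it: GBE1 had a log2 fold change of 0.01 ± 0.13 SE and ZNF717 of 0.20 ± 0.21 SE.

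ROBO4, known as the ROBO of endothelial cells, rose, with 21.1, 22.3 and 21.6 CPM in knockouts and 12.1, 15.6 and 15.8 CPM in controls, and no overlap (log2 fold change 0.58 ± 0.12 SE, edgeR adjusted p = 0.0130). Without knockout replicate 3 its adjusted p was 0.0661. ROBO4 shares 16.9% of its exon bases with 2 genes on the opposite strand. Of the 6 endothelial markers, PECAM1, CDH5, VWF, TIE1 and CLDN5 each averaged under 1 CPM, and KDR, a receptor for vascular endothelial growth factor, had 2.18, 2.95 and 4.42 CPM in knockouts and 2.77, 2.95 and 3.41 CPM in controls, which overlapped (log2 fold change 0.06 ± 0.26 SE, edgeR adjusted p = 0.903). ROBO3, the receptor of commissural axons, lies beside ROBO4 on chromosome 11 and on the other strand. It had 10.0, 11.6 and 12.8 CPM in knockouts and 8.57, 10.2 and 10.1 CPM in controls, which overlapped (log2 fold change 0.25 ± 0.13 SE, edgeR adjusted p = 0.254). ROBO1 made up 0.697% ± 0.440 of the ROBO signal per length in knockouts and 13.7% ± 2.12 in controls, while ROBO4 made up 65.0% ± 2.28 in knockouts and 51.7% ± 2.11 in controls.

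ROBO1 and ROBO4, the receptors that moved in opposite directions, have these start windows, of which ROBO1 has 2 because RefSeq gives it starts far apart.
ROBO1 upstream start, chr3:79767949-79768248, minus strand: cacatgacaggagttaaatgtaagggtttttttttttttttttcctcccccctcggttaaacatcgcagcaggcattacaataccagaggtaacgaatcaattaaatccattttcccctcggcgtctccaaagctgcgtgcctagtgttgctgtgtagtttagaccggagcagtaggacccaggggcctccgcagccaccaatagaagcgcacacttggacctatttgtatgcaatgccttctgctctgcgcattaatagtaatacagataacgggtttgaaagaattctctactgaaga
ROBO1 downstream start, chr3:79019410-79019709, minus strand: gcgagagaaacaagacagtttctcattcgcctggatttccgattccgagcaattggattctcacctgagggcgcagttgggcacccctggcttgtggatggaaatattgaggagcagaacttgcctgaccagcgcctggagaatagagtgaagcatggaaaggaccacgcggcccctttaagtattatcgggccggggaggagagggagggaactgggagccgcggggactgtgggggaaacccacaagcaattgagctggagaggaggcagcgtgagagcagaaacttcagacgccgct
ROBO4, chr11:124897816-124898115, minus strand: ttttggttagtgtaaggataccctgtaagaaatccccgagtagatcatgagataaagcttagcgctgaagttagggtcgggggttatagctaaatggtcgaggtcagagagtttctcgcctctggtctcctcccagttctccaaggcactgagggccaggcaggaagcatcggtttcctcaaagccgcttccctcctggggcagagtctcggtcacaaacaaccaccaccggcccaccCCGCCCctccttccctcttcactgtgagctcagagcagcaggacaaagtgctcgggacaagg
Capitals again mark GGGCGG on either strand. Neither ROBO1 window holds it, with 45.3% and 56.7% G or C, and the ROBO4 window holds 1 match at 55.3% G or C. ROBO1 is an exception here, since 11 of 18 windows of lower members hold the GC box. The bases just after the start were found in a GENCODE 29 transcript for ROBO4 and for the downstream ROBO1 start, and not for the upstream one. Gene counts do not tell which ROBO1 start was used.

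Ephrins showed 1 fall among 8 tested ligands. EFNB2, a transmembrane ephrin that binds EPHB4 and other EPHB receptors, had 59.1, 53.4 and 49.1 CPM in knockouts and 71.8, 71.3 and 77.2 CPM in controls. Every knockout was below every control (log2 fold change -0.45 ± 0.08 SE, edgeR adjusted p = 0.00973), and the adjusted p was 0.0584 without knockout replicate 3 and 0.0644 without control replicate 3. It shares 26.2% of its exon bases with a gene on the opposite strand. EFNB1 had 6.35, 10.4 and 9.70 CPM in knockouts and 7.73, 11.5 and 10.8 CPM in controls, which overlapped (log2 fold change -0.18 ± 0.21 SE, edgeR adjusted p = 0.618). EFNB3 had a log2 fold change of 0.55 ± 0.26 SE and did not pass (edgeR adjusted p = 0.198).

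None of the 5 A ephrins, which are lipid-anchored ligands of EPHA receptors, passed the edgeR test. The most abundant per length, EFNA5, had 48.5, 39.2 and 45.0 CPM in knockouts and 47.9, 44.8 and 50.4 CPM in controls (log2 fold change -0.11 ± 0.09 SE, edgeR adjusted p = 0.506). EFNA4 had 5.76, 5.61 and 6.13 CPM in knockouts and 4.89, 5.02 and 3.69 CPM in controls, without overlap but short of the threshold (log2 fold change 0.36 ± 0.16 SE, edgeR adjusted p = 0.187). EFNA1, a favoured ligand of EPHA2, had a log2 fold change of -0.03 ± 0.24 SE, EFNA2 of 0.30 ± 0.41 SE and EFNA3 of 0.65 ± 0.36 SE, each with overlapping groups. EFNA1, EFNA3 and EFNA4 lie together on chromosome 1. EFNA3 and EFNA4 share 44.7% and 15.0% of their exon bases with a same-strand transcript annotated as AL691442.1, which is not among the counted symbols. Whether this overlap altered the EFNA3 and EFNA4 counts was not tested, so these counts stay uncertain.

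Among the EPH receptors, the falls were in the EPHB class, 3 of 4 tested, and in 1 of 4 tested EPHA receptors. EPHB2, a receptor for B ephrins known from cell sorting in the gut, had 103, 81.7 and 90.5 CPM in knockouts and 153, 145 and 140.3 CPM in controls. All knockouts were lower, by 1.59-fold overall (log2 fold change -0.67 ± 0.09 SE, edgeR adjusted p = 0.00196). EPHB3, which acts beside EPHB2 in the gut, had 5.20, 3.02 and 4.14 CPM in knockouts and 10.6, 9.68 and 8.97 CPM in controls, with no overlap (log2 fold change -1.24 ± 0.19 SE, edgeR adjusted p = 0.00426). EPHB6, a receptor without kinase activity, had 6, 0 and 2 counts in knockouts and 28, 24 and 20 counts in controls. None of its knockout libraries passed the count filter and all controls did (log2 fold change -3.20 ± 0.61 SE, edgeR adjusted p = 0.0107). Its adjusted p was 0.071 without knockout replicate 3, and its size rests on the few counts left in knockouts. EPHB4, the venous receptor of EFNB2 and the most abundant EPHB receptor per length, had 142, 134 and 145 CPM in knockouts and 161, 154 and 150.3 CPM in controls. Its groups did not overlap but the difference did not pass (log2 fold change -0.15 ± 0.06 SE, edgeR adjusted p = 0.171). Summed over the class, the level was 30.1 ± 1.87 CPM per kb in knockouts and 38.1 ± 1.57 CPM per kb in controls.

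EPHA2, despite its high counts, did not pass, with 535, 547 and 570.2 CPM in knockouts and 549, 605 and 577 CPM in controls (log2 fold change -0.07 ± 0.06 SE, edgeR adjusted p = 0.505). It made up 98.9% ± 0.178 of the EPHA signal per length in knockouts and 98.8% ± 0.0758 in controls. EPHA4, which binds ephrins of both classes, had 8.56, 7.69 and 7.31 CPM in knockouts and 9.18, 9.01 and 9.28 CPM in controls, without overlap (log2 fold change -0.22 ± 0.12 SE, edgeR adjusted p = 0.266). EPHA10, another receptor without kinase activity, had a log2 fold change of -0.17 ± 0.26 SE. EPHA5, a receptor best known from brain, fell at a low level, with 1.37, 0.647 and 0.784 CPM in knockouts and 2.46, 1.89 and 2.50 CPM in controls (log2 fold change -1.27 ± 0.32 SE, edgeR adjusted p = 0.0300). Its call held in the fit without knockout replicate 1 only among those that leave out 1 library: the adjusted p was 0.0723 and 0.131 without knockout replicates 2 and 3, and 0.0917, 0.0702 and 0.118 without control replicates 1, 2 and 3.

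In the netrin system, the 1 tested ligand and the 1 tested receptor were both lower. NTN4, a netrin of basement membranes, had 10.3, 10.5 and 8.70 CPM in knockouts and 17.01, 17.4 and 18.7 CPM in controls, which did not overlap (log2 fold change -0.85 ± 0.11 SE, edgeR adjusted p = 0.00185). UNC5B, a netrin receptor known from vessels and from cell survival signalling, had 1.18, 0.970 and 1.21 CPM in knockouts and 3.64, 3.51 and 2.94 CPM in controls. The highest knockout value lay under the lowest control value, and the fall was by 2.99-fold (log2 fold change -1.58 ± 0.22 SE, edgeR adjusted p = 0.00259). NTN1, the founding netrin, stayed under the filter with 6, 0 and 2 counts in knockouts and 4, 2 and 4 counts in controls. NTN5 had 13, 6 and 12 counts in knockouts and 4, 4 and 6 counts in controls and was not tested.

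The 16 members under the count filter had at most 14 counts in any library. EPHA1 had 14, 5 and 8 counts in knockouts and 3, 7 and 8 counts in controls, and SEMA6D 4, 2 and 0 counts in knockouts and 4, 8 and 10 counts in controls. SLIT1 had 1 to 4 counts in knockouts and 0 to 6 in controls. EPHA6, EPHA7, EPHB1, ROBO2, SEMA4A, SLIT3, UNC5A and UNC5C had 0 to 4 counts in every library, and EPHA3, SEMA5B and UNC5D had 0 counts in all 6. No fold change is given for these genes, since their values lie near the counting limit. Of the 68 member values from 1 to 20 counts, 82.4% were even.

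The make-up of each family was described by shares of its summed CPM per kb. EPHB4 made up 72.6% ± 2.24 of the EPHB signal in knockouts and 63.3% ± 0.342 in controls, and EPHB2 24.4% ± 1.59 in knockouts and 30.7% ± 0.0866 in controls. PLXNA1 made up 42.7% ± 3.96 of the plexin signal in knockouts, against 52.5% ± 2.25 in controls, and PLXNB2 39.3% ± 4.04 in knockouts, against 31.7% ± 1.95 in controls. SEMA3C made up 78.8% ± 2.64 of the class 3 signal in knockouts and 70.9% ± 1.06 in controls. SEMA7A, at 29.1% ± 4.75 of the class 4 to 7 signal in knockouts and 20.8% ± 1.48 in controls, and SEMA6B, at 27.5% ± 3.35 in knockouts and 38.1% ± 2.02 in controls, changed places as the largest mean share, but in knockout replicate 1 SEMA6B kept the larger one, at 31.1% against 24.2%. EFNB2 remained the largest B ephrin share, at 75.5% ± 3.87 in knockouts and 80.5% ± 3.04 in controls. Of 47 shares, 24 had an exact two-sided permutation p of 0.1, the smallest that 3 against 3 libraries allow, and the smallest Benjamini-Hochberg adjusted value was 0.196. This design cannot reach 0.05, so the shares are given as a description.

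**Figure D5:**
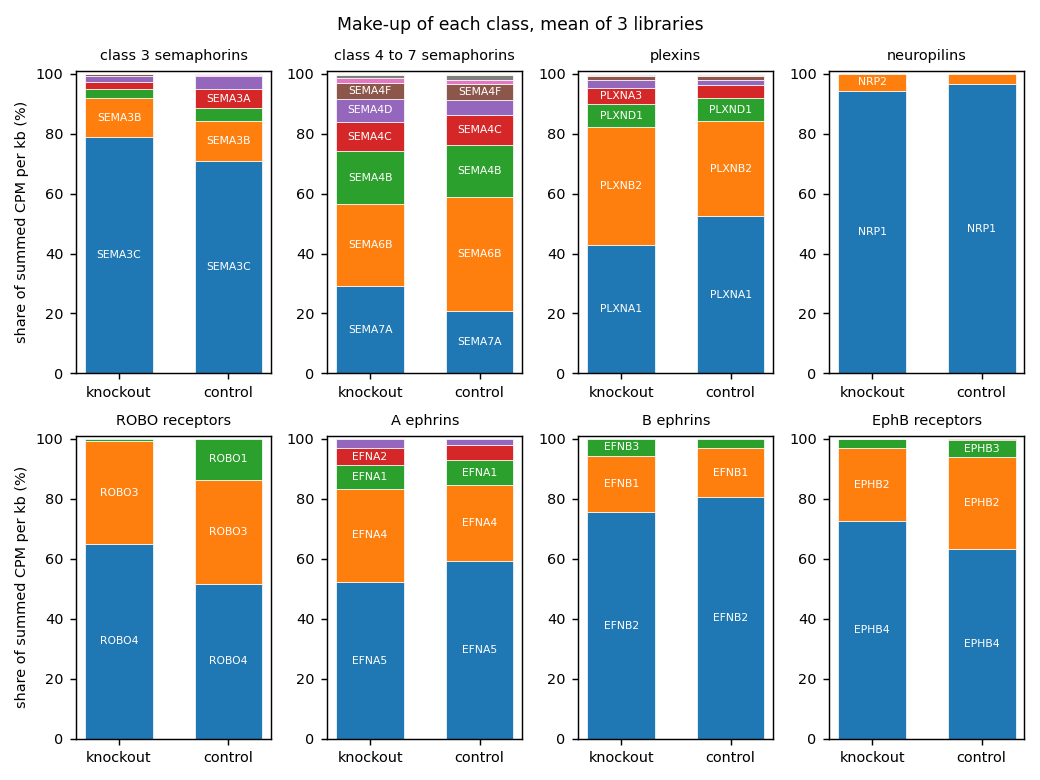
Share of each member in the summed CPM per kb of its family in percent, mean of 3 RNASEH2A knockout libraries (left bar) and of 3 controls (right bar), for the 8 families with several members of sizeable level. ROBO1 holds a visible share of the ROBO bar in controls only, and SEMA7A has the largest mean share of the class 4 to 7 semaphorins in knockouts and SEMA6B in controls.

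Partners of these families were read from 4 lists of co-receptors and downstream genes, with 73 tested of 87 counted. Of these, 1 was higher and 13 lower, where 5.88% of all genes were higher and 6.22% lower, and the median log2 fold change was -0.06, against 0.00 over all genes. On the semaphorin side, 0 of 24 tested were higher and 7 lower. RHOD, a small GTPase, had 27.6, 28.1 and 25.4 CPM in knockouts and 39.0, 38.8 and 39.1 CPM in controls (log2 fold change -0.53 ± 0.08 SE, edgeR adjusted p = 0.00339). The growth factors PGF and VEGFA, which also bind neuropilins, changed by -0.80 ± 0.17 and -0.52 ± 0.11 SE on the log2 scale (edgeR adjusted p = 0.0145 and 0.0147), and L1CAM, an adhesion molecule that pairs with NRP1, by -0.57 ± 0.13 SE (edgeR adjusted p = 0.0222). On the SLIT and ROBO side 2 of 19 were lower, the actin regulators ENAH (-0.54 ± 0.09 SE) and EVL (-0.72 ± 0.15 SE). On the ephrin side 1 of 18 was lower, the scaffold GRIP1 (-1.49 ± 0.32 SE), which binds B ephrins.

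On the netrin side, 1 of 12 tested was higher and 3 lower. NEO1, or neogenin, a receptor for netrins and for repulsive guidance molecules, was the 1 partner gene that rose, with 30.1, 50.4 and 51.5 CPM in knockouts and 12.6, 19.9 and 19.6 CPM in controls. All knockouts exceeded all controls, with replicate 1 the lowest in both groups (log2 fold change 1.34 ± 0.23 SE, edgeR adjusted p = 0.00606). DCC, the classical netrin receptor, had 0 counts in every library. MCAM, an adhesion molecule also called CD146, changed by -0.59 ± 0.09 SE on the log2 scale, and the actin-binding ABLIM1 by -0.44 ± 0.09 SE (edgeR adjusted p = 0.00339 and 0.0156). The count of partners called ran from 4 without knockout replicate 3 or control replicate 3, through 5 without control replicate 2 and 9 without control replicate 1, to 25 without knockout replicate 1.

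RefSeq start windows were found for 56 of the 66 members, 88 windows in all. The GC box GGGCGG, searched on both strands, was in 72.7% of them, against 44.9% of all 34794 windows. The TATA box TATAAA was in 3.41% of member windows and 11.6% of all, the AP-1 site TGANTCA in 1.14% and 7.73%, GGAATG, a TEAD site, in 11.4% and 14%, and CAGGTG, an E-box bound by ZEB and Snail factors, in 19.3% and 20.6%. By call, the GC box was in 7 of 7 windows of the higher members, 11 of 18 of the lower ones, 32 of 38 of those that did not pass and 14 of 25 of those under the filter. ROBO1, SEMA3D and SEMA3E, printed above, are the only lower members with a window where no window holds it. These are descriptions of letters in a window, several windows can belong to 1 gene, and no difference between these groups was tested.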

How the data were processed

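Strand-specific poly-A RNA-seq libraries of MDA-MB-231 cells, 3 labelled as RNASEH2A knockout and 3 as control, were analysed from 2 deposited tables. The submitters' processing notes name FastQC, STAR version 2 and GRCh38 (hg38). No source used here names the counter or its annotation. The deposited raw count table holds whole-number counts of 25330 symbols and gave all results, and the authors' deposited log2 CPM table was used for an alternative only. Groups came from the genotype label and replicate numbers from the titles.

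Counts were tested with edgeR 4.0.16 in R 4.3.3: filterByExpr (a cutoff of 0.352 CPM in at least 3 libraries), TMM factors, and the quasi-likelihood F test, two-sided, with Benjamini-Hochberg adjustment over 14199 genes and a threshold of 0.05. CPM values are on the TMM scale. Lengths are unions of GENCODE 29 exons. Standard errors are the log2 fold change divided by the square root of F. In a simulation of this comparison over 14199 genes, 200 of them altered, 53.7% of 1.5-fold, 80.6% of 2-fold and 97.0% of 4-fold changes were found, and 5.52% of 163 calls were false. The simulated libraries were drawn independently, while deviations in the data correlated between some libraries and 1718 genes were called. These rates may therefore differ in the data.

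The members, partner lists, marker lists and alternatives were chosen with earlier results of these data known. Named with all libraries are every member that passed and the most abundant tested members of each family, up to 2. Of each partner list, up to 4 that passed with the smallest p are named. RHOD and NEO1 are given with all libraries and the other partners by log2 fold change. A few list members are not reported here. CACNA2D1, PCLO, GNAI1, MAGI2, GBE1 and ZNF717 were chosen by position among protein-coding genes. Alternatives were DESeq2 1.42.0, limma-voom (limma 3.58.1), RLE factors, library size only, no filter, a mean of at least 1 CPM, the replicate block, a test against 1.5-fold, the deposited log2 CPM values, subtraction of the median of 40 chromosomal neighbours and each library left out.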

Additional observations from a re-analysis of the deposited data

How the results depend on the processing

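All 19 members that passed kept their direction under the 17 alternatives, except that EPHB6 and SEMA3E were not tested with a mean of at least 1 CPM, and ROBO1, SEMA3A, SEMA3D and UNC5B (4 of 19) passed under every one. Apart from the test against a 1.5-fold change, which called 0 higher and 4 lower members, 77 and 76 genes in all and 0 partners, 10 members passed wherever tested: those 4 with EPHB2, EPHB3, NRP2, NTN4, SEMA3E and SLIT2. Without 1 library, members called ran from 1 to 7 higher and from 9 to 17 lower, all genes from 261 to 1629 higher and from 263 to 1801 lower, and partners from 4 to 25. The fit with the replicate block called 1506 genes higher and 1593 lower, 6 members higher and 16 lower, adding PLXNA1, SEMA3C and SEMA6B (adjusted p = 0.0108, 0.0418 and 0.00131), and 24 partners. Deviations of same-numbered libraries correlated at 0.316, 0.139 and 0.0855. The last is below the 0.1 asked of every pair, no label says that a number marks a shared passage or day, and knockout replicate 2 correlated about equally with control 2 and control 3 (0.141), so the block was kept as an alternative. Subtracting the neighbours' median left 491 genes higher and 478 lower. Without replicate 1 of both groups, a choice made after seeing the data, 2045 genes were higher and 2267 lower, with 33 partners.

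Of members that did not pass, 8 passed somewhere, and 10 turned direction under some alternative. With the neighbours' median subtracted, the log2 fold changes of EFNA1, PLXND1 and SEMA4F were 0.0993, -0.0113 and -0.142. Over the fits without 1 library, the log2 fold change ran from -0.168 to 0.173 for EFNA1, from -0.0232 to 0.64 for EFNA2, from -0.343 to 0.0104 for EFNB1, from -0.159 to 0.316 for PLXNB3, from -0.0582 to 0.272 for PLXNC1 and from -0.00792 to 0.0898 for PLXND1. It ran from -0.955 to 0.0561 for SEMA3G, from -0.0195 to 0.114 for SEMA4C, from -0.0966 to 0.0915 for SEMA4F and from -0.39 to 0.0679 for SEMA6A, and the RNASEH2A log2 ratio from -0.592 to 0.389. Without both replicates 1, EFNA1 stood at 0.000525, EFNA2 at -0.287, PLXNB3 at -0.22, PLXNC1 at -0.118, SEMA4F at -0.0116 and SEMA6A at 0.138. Shares in knockouts moved for EPHA2 (98.75% per kb of the longest transcript and 98.1% on raw counts), and on raw counts for PLXNA1 (49.4%), EPHB2 (38.8%) and NRP2 (6.94%), where length no longer counts. The cause of the other changes was not tested. Depth limits the 16 members under the filter and the knockout values of ROBO1, EPHB6 and SEMA3E.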
